A study of Drosophila melanogaster with 2 samples.

Results

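Peaks at promoters of a single gene made up 585 of the 1692 aop-eGFP ChIP-seq peaks that lay on the chromosome arms (34.6%, 95% interval 32.3 to 36.9), out of 1725 peaks in all. A peak was a member when its summit, the position of highest signal within it, lay within 500 bp of an annotated transcription start site (TSS) and every TSS within 500 bp belonged to the same gene. Transposon genes were left out of that annotation. The members lay at 549 genes, of which 518 had 1 member, 26 had 2 and 5 had 3. They were set beside 17923 candidates of the same promoter class, most of them weaker, that did not overlap the thresholded list, called background candidates here. That class made up 12.5% of the 143341 candidates that did not overlap the list. A further 298 peaks lay at promoters that several genes share, and 809 lay away from promoters.

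The study mapped the binding of the tagged protein in whole Drosophila melanogaster embryos of the aop-GFP strain. Its 1 group held 2 biological replicates of transgenic embryos aged 0 to 24 h, which expressed aop fused to eGFP. Chromatin was sheared to 200 to 800 bp, and an anti-GFP antibody was used for the precipitation. The collection mixes all embryonic stages and tissues, and the peak lists do not tell in which cells a promoter was bound. Control libraries were not analysed here, and without counts in the files the sequencing depth is not known.

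The gene aop (anterior open, also called Yan) encodes an ETS-domain repressor of transcription. Receptor tyrosine kinases such as the EGF receptor act through the MAP kinase cascade to remove it from the nucleus, and the activator encoded by pnt binds the same DNA sites. In fly promoters, the GAGA factor encoded by Trl and the TATA-binding protein TBP are known mainly from regulated developmental genes. The DNA replication-related element (DRE), the motif of Motif 1 binding protein (M1BP) and the core promoter motifs numbered 5, 6 and 7 by Ohler are known mainly from broadly expressed genes.

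The members with an ETS site are shown first, because the tagged protein has an ETS domain. The site searched had A or C, then CGGAA, then A or G, then C or T, on either strand. Of the 4 members with the 9-base form ACCGGAAGT, 3 are shown here: shakB, which encodes a gap junction protein, fig, a phosphatase gene, and Cmpk, a nucleotide kinase gene. Best1, a bestrophin chloride channel gene, was the strongest member with an ETS site. The promoters of pnt and of pnr, a GATA factor gene, were chosen after their values were seen, because they held an ETS site together with a GAGA site (GAGAGAG). Each sequence is centred on the summit and runs 5′ to 3′ on the gene's strand in the RefSeq sequence of Release 6 (dm6). Capitals mark matches to the ETS, GAGA and DRE (TATCGATA) sites. The sequences of Cmpk, pnt and pnr span the whole searched window of 100 bp on each side, and the others span 50 bp on each side.
Best1 (chr3R:10170603-10170703, minus strand): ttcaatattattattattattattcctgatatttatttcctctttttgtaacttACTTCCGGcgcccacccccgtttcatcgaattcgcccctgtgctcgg
shakB (chrX:20788313-20788413, minus strand): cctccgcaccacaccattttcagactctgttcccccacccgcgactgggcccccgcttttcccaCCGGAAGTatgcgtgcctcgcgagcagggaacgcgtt
fig (chr3R:29780800-29780900, minus strand): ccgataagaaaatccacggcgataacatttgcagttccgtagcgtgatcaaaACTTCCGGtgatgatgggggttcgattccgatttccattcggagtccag
Cmpk (chr3R:26055362-26055562, minus strand): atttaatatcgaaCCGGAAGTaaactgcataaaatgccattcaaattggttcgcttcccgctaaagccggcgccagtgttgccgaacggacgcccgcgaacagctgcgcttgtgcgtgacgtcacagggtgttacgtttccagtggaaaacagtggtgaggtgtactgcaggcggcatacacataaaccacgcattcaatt
pnt (chr3R:23314414-23314614, minus strand): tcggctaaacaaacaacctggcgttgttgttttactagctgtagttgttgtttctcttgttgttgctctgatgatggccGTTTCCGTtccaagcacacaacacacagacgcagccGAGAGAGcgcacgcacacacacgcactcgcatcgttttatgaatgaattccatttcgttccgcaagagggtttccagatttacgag
pnr (chr3R:16025942-16026142, plus strand): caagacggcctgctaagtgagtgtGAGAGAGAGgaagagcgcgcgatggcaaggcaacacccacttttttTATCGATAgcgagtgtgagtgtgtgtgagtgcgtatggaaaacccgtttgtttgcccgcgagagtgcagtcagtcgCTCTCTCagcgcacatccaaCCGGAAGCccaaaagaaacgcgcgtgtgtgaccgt

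In Best1 the ETS site lay 8 bp from the summit, and its GAGA matches, 76 and 78 bp from it, fall outside the sequence shown. In pnt the ETS site lay 17 bp from the summit. In pnr it lay 69 bp from the summit, beside 3 GAGA matches, of which 2 overlap in a single repeat, and 1 DRE. The annotated TSS is base 125 of the Cmpk sequence and base 138 of the pnr sequence.

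The next sequences carry the other promoter motifs in capitals. They show an M1BP motif at scrib, a cell polarity gene, and a DRE at Nrg, which encodes the adhesion protein neuroglian and was chosen after its value was seen. A Mef2 site stands at CG18549 and a TATA box at lncRNA:CR31044. Apart from Nrg, each is the strongest member with its motif. The scrib sequence spans 50 bp on each side of the summit and the others 100 bp, and the TSS is base 118 of the Nrg sequence.
scrib (chr3R:26536183-26536283, plus strand): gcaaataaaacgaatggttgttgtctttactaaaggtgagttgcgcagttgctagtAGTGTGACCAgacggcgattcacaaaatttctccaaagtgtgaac
Nrg (chrX:8517256-8517456, plus strand): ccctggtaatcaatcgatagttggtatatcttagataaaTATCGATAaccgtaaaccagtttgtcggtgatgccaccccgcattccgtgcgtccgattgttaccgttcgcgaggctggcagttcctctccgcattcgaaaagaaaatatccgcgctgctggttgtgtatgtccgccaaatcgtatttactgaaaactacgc
CG18549 (chr3R:12449079-12449279, plus strand): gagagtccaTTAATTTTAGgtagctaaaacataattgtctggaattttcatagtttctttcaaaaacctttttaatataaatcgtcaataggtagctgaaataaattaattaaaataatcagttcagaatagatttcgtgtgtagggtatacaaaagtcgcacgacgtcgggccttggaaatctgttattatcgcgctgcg
lncRNA:CR31044 (chr3R:29214356-29214556, plus strand): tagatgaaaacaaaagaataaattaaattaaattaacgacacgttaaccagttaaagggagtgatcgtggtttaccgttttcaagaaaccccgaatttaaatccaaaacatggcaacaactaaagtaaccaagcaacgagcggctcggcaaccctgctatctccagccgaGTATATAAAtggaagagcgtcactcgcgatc

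The remaining sequences are those of 6 of the 10 strongest members, shown because none of the marked motifs occurred within 50 bp of their summits. Those of px and CG1888 are not shown. The 6 differ in base composition. Within 100 bp of the summit, the GC content was 59.7% at aop and 51.2% at spi, the gene of Spitz, a ligand of the EGF receptor, but 36.8% at CG14100. It was 45.8% at Ugalt, a UDP-galactose transporter gene, 35.8% at lobo, a flagellar protein gene, and 37.3% at ph-p, a Polycomb group gene.
CG14100 (chr3L:19590560-19590660, minus strand): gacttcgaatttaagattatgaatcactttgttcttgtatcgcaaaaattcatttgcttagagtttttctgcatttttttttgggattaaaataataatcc
Ugalt (chrX:2703851-2703951, minus strand): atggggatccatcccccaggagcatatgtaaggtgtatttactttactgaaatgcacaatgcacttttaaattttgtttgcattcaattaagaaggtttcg
aop (chr2L:2161663-2161763, minus strand): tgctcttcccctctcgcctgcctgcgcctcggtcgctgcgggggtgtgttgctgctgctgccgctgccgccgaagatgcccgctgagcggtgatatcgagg
lobo (chr3R:25193939-25194039, minus strand): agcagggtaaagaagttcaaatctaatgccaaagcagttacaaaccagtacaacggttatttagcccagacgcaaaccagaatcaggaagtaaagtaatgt
ph-p (chrX:2137301-2137401, minus strand): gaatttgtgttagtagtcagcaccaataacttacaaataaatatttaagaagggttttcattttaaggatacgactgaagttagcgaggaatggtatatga
spi (chr2L:19576012-19576112, minus strand): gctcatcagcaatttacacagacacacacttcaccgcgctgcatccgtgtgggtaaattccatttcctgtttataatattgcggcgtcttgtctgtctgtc

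The strongest members stood far above the rest. Signal is the authors' own value of enrichment per peak, with an unstated scale. The thresholded peaks are lines of the ranked list and share its scale, while values of the 2 replicates come from separate lists and are set side by side without a test. The median over the members was 65.8 (interquartile range 54.5 to 93.3, lowest 2.94, highest 696.3), against 17.0 for background candidates (highest 269.4). The thresholded list was selected on a ranking of this kind, so that gap only describes the selection. Shared promoters had a median of 65.9 and peaks away from promoters 63.3, so the members were neither a strong nor a weak class within the list.

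CG14100, a gene of unstated function, had the highest signal with 696.3 in the combined list, 272.0 in replicate 1 and 426.2 in replicate 2. Best1 followed with 611.9, and had 231.4 in replicate 1 and 371.5 in replicate 2. Ugalt had 582.7, with 248.4 and 334.1 in replicates 1 and 2. These peaks ranked between 2 and 6 in both replicates' own candidate lists.

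The promoter of aop itself came next among the members, with a signal of 543.8 in the combined list, 151.8 in replicate 1 and 386.1 in replicate 2. It ranked 17 in replicate 1 and 4 in replicate 2. The next 3 members were lobo with 468.9, px (plexus, known from wing vein patterning) with 425.9 and ph-p with 410.1. They were followed by spi with 402.3, scrib with 384.7 and CG1888 with 379.5. All 10 stood in the own thresholded lists of both replicates, and all 10 summits lay upstream of the nearest TSS, by 49 bp at Ugalt to 496 bp at ph-p. Some lay inside the gene, in an intron at aop, px, ph-p and spi and in the 5′ UTR at CG1888. There the nearest TSS was not the most 5′ one.

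**Figure D1:**
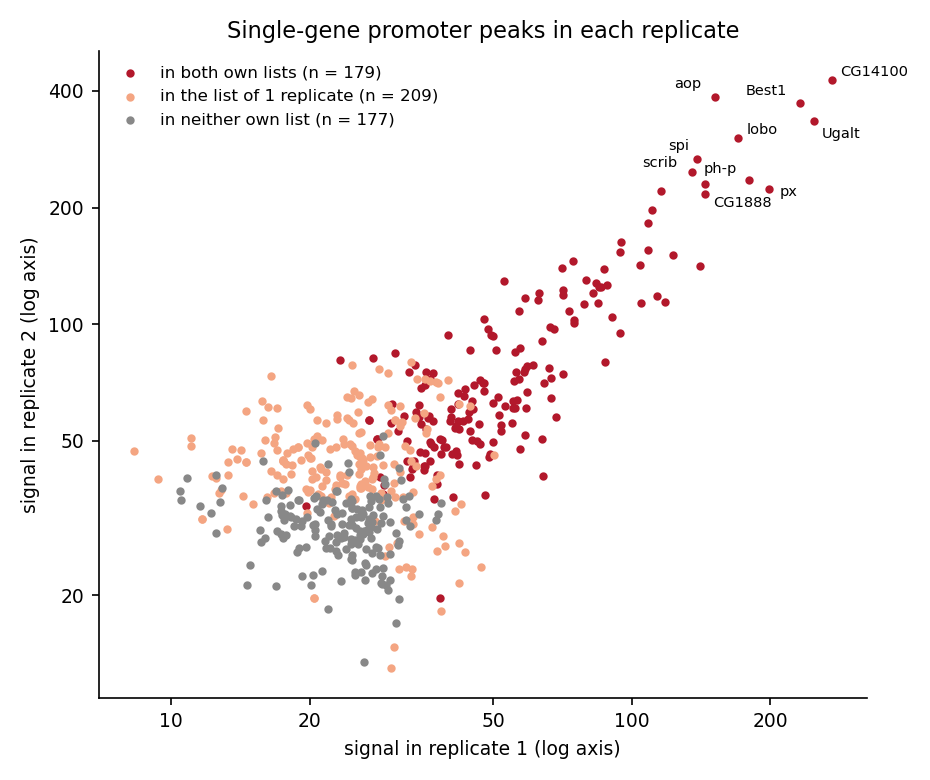
Signal of each member in replicate 2 against replicate 1, both on log axes, for the 565 members with a candidate in each replicate; colours give the number of own thresholded lists that hold the member. The 10 labelled members have the highest combined signal and sit at the upper right, and the members in neither list sit at the lower left.

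About 1 member in 3 stood in both replicates' own lists. These were 179 members (30.6%, 26.9 to 34.5), while 34 stood only in the list of replicate 1, 187 only in that of replicate 2 and 185 (31.6%) in neither. The replicate lists differ in length, with 628 peaks in replicate 1 and 1142 in replicate 2. As mere candidates, 567 members were found in replicate 1 and 583 in replicate 2. Over the 565 with a candidate in both, signal in the replicates followed one another with a Spearman rho of 0.52, a description over sites that share their libraries. Of the shared promoters 31.9% stood in both lists, so the members differed by −1.28 percentage points, with an interval of −7.85 to 5.06 that includes 0. Of the peaks away from promoters 25.7% stood in both, which was 4.89 points below the members (0.125 to 9.70). All intervals here treat regions as independent and cover counting error only.

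Strength and presence in both lists went together. Of the strongest 117 members 106 (90.6%) were in both lists, against 4 of the weakest 117 (3.42%). Combined signal and the own lists come from the same 2 replicates, so this relation only describes the lists. The strongest members in neither list were nebu (85.3), lncRNA:CR44409 (78.5) and Tsp42Eg (74.1). The summit at lncRNA:CR44409 lay 475 bp downstream of the TSS, past the end of that RNA and inside another gene. The largest differences of rank between the replicates were at fz2, hppy and AdipoR. For fz2, a Wingless receptor gene, signal was 8.29 in replicate 1 and 47.0 in replicate 2. For hppy, a kinase gene, it was 9.36 and 39.9, while AdipoR, an adiponectin receptor homologue, had 29.99 in replicate 1 and 12.9 in replicate 2. The conservative list of the authors held 451 members (77.1%).

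The 4 members with a signal under 20 each overlapped another peak of the list. Those named by rule were CG3386 with 13.7, wg with 2.97 and rt with 2.94. The weak wg peak and a second member at wg with 58.8 overlapped the same candidates, so both read 18.9 in replicate 1 and 48.1 in replicate 2. In all, 17 members overlapped another peak.

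Values changed little across the limits of the rule. The 28 members in the last 50 bp of the window had a median signal of 67.0, and 34 single-gene summits in the 50 bp beyond it had 73.1, one of which, at sty, was the strongest peak of the list with 1468.5. The 10 members with the lowest scores, 832 to 840, had a median signal of 50.01, and the 10 highest-scored candidates of the class below the list's lowest score of 830 had 48.0.

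The summits lay on the upstream side of the TSS more often than those of background candidates. They were upstream in 417 of 585 members (71.3%, 67.4 to 74.9), against 39.2% of background candidates, a difference of 32.1 percentage points (28.2 to 35.6). Within 100 bp of the TSS lay 241 members (41.2%, 37.2 to 45.3) and 24.3% of background candidates, a difference of 16.9 points (12.9 to 21.0). In the list made without replicate 2, the share of summits within 100 bp was 26.7%. The median position was −78 bp in members and +81 bp in background candidates. The coding sequence of the gene held 9 member summits (1.54%) against 25.5% of background summits. Outside the gene lay 284 (48.5%, background 30.6%), in an intron 140 (23.9%, background 17.2%) and in the 5′ UTR 131 (22.4%, background 19.0%). The 5′ UTR difference was small, at 3.38 points (0.134 to 6.98). GC content differed too, with a median of 42.8% in members and 47.3% in background candidates; its part in these differences was not tested.

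**Figure D2:**
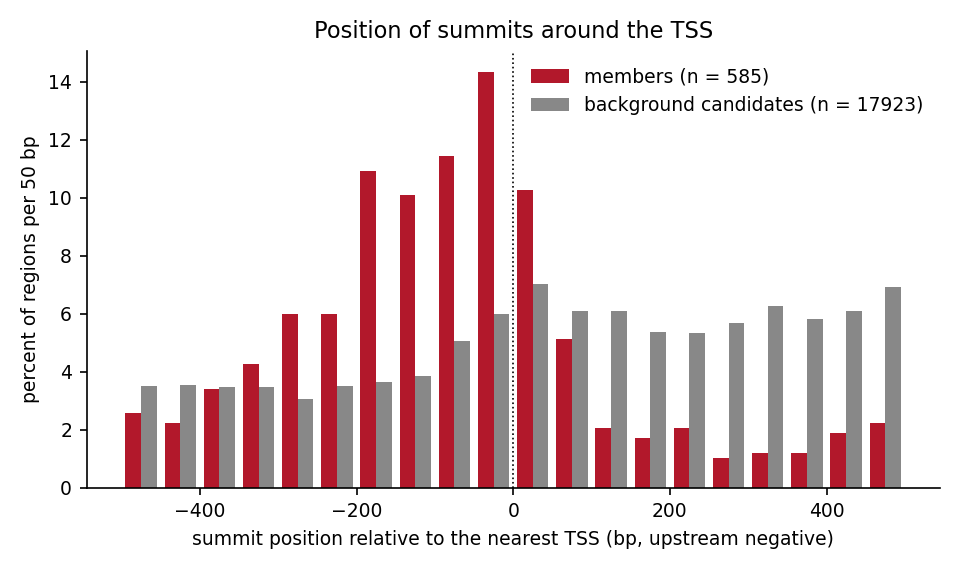
Percent of summits per 50 bp around the nearest TSS (upstream negative), for 585 members and 17923 background candidates. Member summits are most frequent in the 50 bp upstream of the TSS (14.4%) and scarce beyond 100 bp downstream, where background candidates are spread evenly.

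The strongest members lay upstream more often and in DNA of lower GC content than the weakest. In the strongest 117 members, 83.8% of summits were upstream and 26.5% within 100 bp of the TSS, with a median GC content of 37.8%. In the weakest 117, 65.8% were upstream and 51.3% within 100 bp, and the median GC content was 46.8%. Single-gene promoters made up 37.8% of the strongest 339 peaks on the arms and 32.7% of the weakest 339.

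**Figure D3:**
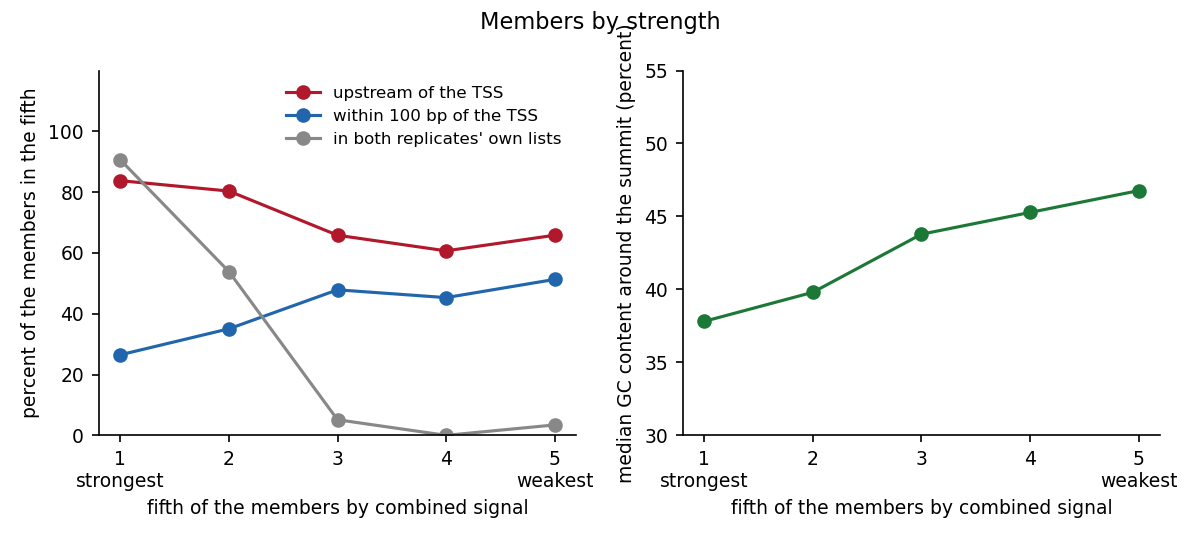
Members in groups of 117 by combined signal, strongest at the left. The left panel gives the percent upstream of the TSS, within 100 bp of it and in both own lists, and the right panel the median GC content, which is 37.8% in the strongest and 46.8% in the weakest group.

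Genes with a member were long and often had several promoters. Their median length was 6364 bp, counted per member, against 2419 bp for background candidates. At 337 members (57.6%) the gene had 2 or more TSSs, against 37.0% of background candidates. At 170 of those 337 (50.4%) the bound promoter was not the most 5′ one, against 59.0% in the background. Of the members, 528 (90.3%) belonged to protein-coding genes, against 84.5% of background candidates, a difference of 5.80 points (3.08 to 8.01).

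The 5 genes with 3 members were aop, spi, Ptpmeg2, Rtnl1 and ced-6. At aop, 1 peak lay 186 bp upstream of an internal TSS, and the others lay 35 and 406 bp downstream of the most 5′ TSS with signals of 113.8 and 143.9. All 3 were in both own lists. At spi, peaks 475 bp upstream and 45 bp downstream of the same TSS had 402.3 and 122.6, and a peak at another TSS had 61.0 and was in neither list.

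Ptpmeg2, a tyrosine phosphatase gene, had 3 peaks at 3 different TSSs, each 159 to 181 bp upstream, with signals of 250.9, 117.4 and 116.8. Rtnl1, which encodes a reticulon of the endoplasmic reticulum, likewise had 3 peaks at 3 TSSs with 217.0, 112.0 and 52.9. The peaks of ced-6, which encodes an engulfment adaptor, were weaker, at 60.2, 52.3 and 50.5.

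Members were dense around aop. Within 100 kb of its strongest summit lay 7 members among 32 peaks, where arm 2L as a whole held 0.961 members per 200 kb. Background candidates were dense there too, with 51 against 28.4 per 200 kb on the arm. Beside the 3 at aop, these were 2 at papi, a piRNA pathway gene, with signals of 255.0 and 65.8, and 1 each at the noncoding RNA genes lncRNA:CR45290 (66.3) and lncRNA:CR44066 (45.3). The tagged gene is aop itself, and the part of the transgene in these values was not tested. Without these 7, 578 members remained.

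An ETS site was more frequent around member summits than in the background, but most members had none. It occurred within 100 bp of the summit in 47 members (8.03%, 5.96 to 10.5), against 4.98% of background candidates, a difference of 3.05 percentage points (1.09 to 5.56). Shared promoters had it in 5.03% and peaks away from promoters in 7.79%. The difference from shared promoters, 3.001 points, had an interval of −0.66 to 6.17 that includes 0. The 9-base form occurred in 4 members (0.684%) against 0.195% of background candidates, and its members were Cmpk (114.9), lncRNA:CR44628 (55.8), shakB (54.9) and fig (54.5).

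ETS sites lay nearer the summit in members than in the background. Of 85 matches within 250 bp of member summits, 31 (36.5%, 26.3 to 47.6) lay within 50 bp, against 22.3% of 2205 matches in the background, and the median distance was 82 bp in members and 116 bp in the background. The median signal was 58.6 in the 47 members with a site and 66.1 in the 538 without. Among the strongest 293 members the ETS difference from the background was 1.5 points (−0.815 to 4.94), and without replicate 2 it was 2.79 (−0.127 to 7.16). With sites counted within 250 bp it was 2.56 (−0.0478 to 5.63), so none of these intervals excluded 0. RpL24, a ribosomal protein gene, had a site 51 bp from the summit and a signal of 116.4, and cad (caudal, a homeodomain gene) had one 4 bp from it and 72.9.

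The GAGA site was more frequent in members than in both comparison sets. It occurred in 83 members (14.2%, 11.5 to 17.3), against 2.68% of shared promoters and 4.22% of background candidates. The differences were 11.5 points to shared promoters (7.89 to 14.8) and 9.96 points to the background (7.35 to 13.0). The size depended on the window: the difference from the background was 2.7 points within 50 bp and 19.1 within 250 bp. Peaks away from promoters had it in 7.29%. Unlike the ETS matches, GAGA matches were not gathered at the summit, since 15.4% of 416 matches in members and 19.5% in the background lay within 50 bp of it, counting overlapping matches in a repeat separately. The members with a GAGA site had a median position of −130 bp. Among them were Best1, spi, Btk, pnt, msi (which encodes the RNA-binding protein Musashi), daw (an Activin-like ligand gene) and Moe (moesin). Of the 83, 8 (9.64%, 4.25 to 18.1) also had an ETS site, near the 8.03% over all members.

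The DRE and Ohler motifs 5, 6 and 7 were less frequent in members than at shared promoters, while for M1BP the interval of the difference included 0. The DRE occurred in 20 members (3.42%, 2.10 to 5.23), 10.4% of shared promoters and 1.11% of background candidates. The members lay 6.98 points below shared promoters (interval −11.1 to −3.50 for the difference) and 2.31 points above the background (1.10 to 4.12). The difference from shared promoters was −2.21 points with a TSS window of 250 bp (−7.73 to 1.963) and −2.3 with the motif within 50 bp (−5.49 to 0.153), where the intervals included 0. All 20 summits with a DRE lay between 197 bp upstream and 12 bp downstream of the TSS, and the strongest was Alg3, a glycosylation gene, with 181.1. The M1BP motif occurred in 10 members (1.71%), 3.69% of shared promoters and 0.742% of background candidates. Its difference from shared promoters was −1.98 points (−4.88 to 0.163). Without replicate 2 the differences from the background were −0.217 points for the DRE (−0.917 to 2.16) and 0.132 for M1BP (−0.559 to 2.51), so that of the DRE changed direction. Against the strongest 1792 background candidates the M1BP difference was −0.0763 points (−1.14 to 1.42). Ohler motif 7 (CA, G or T, C, any base, CT, then A or G) occurred in 15.9% of members, 25.8% of shared promoters and 8.32% of background candidates. Ohler motif 5 (CAGCTG, A or T, T) occurred in 5.98%, 10.7% and 3.19% of the same sets. Ohler motif 6 occurred in 1 member (0.171%), 2.68% of shared promoters and 0.179% of background candidates. Shared promoters had a median GC content of 37.8%, and the part of GC content in the differences from them was not tested. With the background reweighted to the GC content of the members, the differences from it were 1.81 points for the DRE (0.594 to 3.63) and 0.824 for M1BP (0.0256 to 2.24).

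The Mef2 site occurred in 7.86% of members, 13.4% of shared promoters and 3.58% of background candidates, and the members lay 4.28 points above the background (2.34 to 6.76). These sets differ in AT content. The TATA box (C or G, TATA, A or T, AA, A or G) occurred in 3.25% of members and 2.62% of background candidates, a difference of 0.631 points (−0.553 to 2.41). The Zelda site (CAGGTA, A or G) occurred in 2.74% of members and 3.22% of background candidates (−1.56 to 1.20 for the difference). A repeat of CA occurred in 4.44% of members and 2.76% of background candidates, a difference of 1.69 points (0.272 to 3.69). An initiator (TCA, G or T, T, C or T) within 5 bp of its place at the TSS occurred in 20.7% of members and 12.2% of background candidates, a difference of 8.44 points (5.32 to 11.9). None of the ETS, GAGA, DRE and M1BP sites was found in 438 members (74.9%), against 89.3% of background candidates. Members thus lacked all of these sites less often than the background. All motifs except the initiator were searched on both strands, and a match is a description of the letters, not a bound site.

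**Figure D4:**
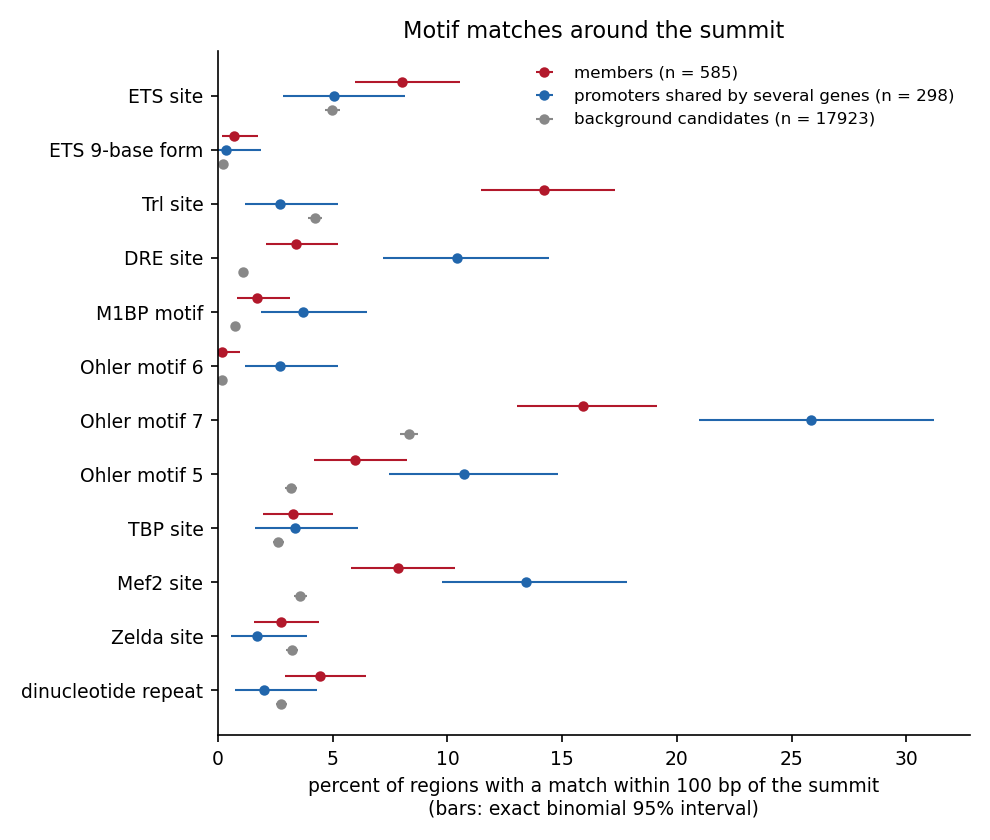
Percent of regions with each motif within 100 bp of the summit, for members, shared promoters and background candidates, with exact binomial 95% intervals; the Trl site is the GAGA site and the TBP site the TATA box. The members lie above both other sets for the Trl site (14.2%) and below shared promoters for the DRE (3.42% against 10.4%).

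Genes of receptor tyrosine kinase and MAPK signalling often had a bound promoter of their own. Counts are over genes with at least 1 candidate of the class, among which 493 of 9176 protein-coding genes had a member, a background of 5.37%. In that pathway 11 of 51 genes had one (21.6%, 11.3 to 35.3), with 15 members in all at a median signal of 72.7. Without replicate 2 the list had 6 of 48 (12.5%, 4.73 to 25.2), where 2.62% of all protein-coding genes had a member. The lists were chosen with results of these data known, so the counts describe them and are not independent evidence.

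Among the pathway's ligands, spi stood at 402.3, and Pvf3, a ligand of the PDGF and VEGF receptor homologue, had 58.1. The promoter of rho, whose protease releases active Spitz, had 50.2, and that of aos, a secreted inhibitor of the EGF receptor, had 60.6. Inside the cell, Btk (a Tec-family kinase) had 176.3, with 74.9 in replicate 1 and 100.7 in replicate 2, and Src64B had 62.8. The feedback gene Socs36E had 72.7.

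Among the nuclear factors, aop reached 543.8, pnt 107.2, edl (an ETS-related antagonist of aop and pnt) 65.3 and cic (the repressor Capicua) 63.9. The pnt peak was in both own lists, with 51.4 in replicate 1 and 58.2 in replicate 2. The edl peak, with 16.03 in replicate 1 and 50.3 in replicate 2, was in the list of replicate 2 alone. The 3 factors aop, pnt and edl were also the bound members in a list of 8 ETS-domain and related genes (37.5%, 8.52 to 75.5). Of these, edl encodes a protein without an ETS domain, and aop is the tagged gene itself.

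Other signalling and developmental lists had smaller counts with wide intervals. Without replicate 2 the Polycomb and Trithorax groups had 1 of 20 genes (5.0%), cell polarity genes 1 of 24 and Wingless signalling 2 of 19, against a background of 2.62%. The gap and pair-rule, mesoderm, Hedgehog, ecdysone, cell cycle, splicing and translation factor lists then had none. Wingless signalling had 5 of 22 genes (22.7%, 7.82 to 45.4): gish (a casein kinase gene, 211.1), sgg (the GSK3 homologue, 121.8), nkd (81.8), fz2 (54.2) and wg. The Polycomb and Trithorax groups had 5 of 21 (23.8%, 8.22 to 47.2), with ph-p at 410.1, its paralogue ph-d at 82.8 and Trl at 77.8. The neighbouring genes ph-p and ph-d are highly similar tandem duplicates, so reads could be split between them. The gap and pair-rule segmentation list had 5 of 24 genes: ttk (109.3), cad, bcd, and also Trl and wg, which were counted above too. That list is broader than its name, and none of these 5 is itself a gap or pair-rule gene. Cell polarity genes had 5 of 29, with scrib at 384.7 and Nrg at 63.7.

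For each list in this paragraph, the interval of the share included the background of 5.37%. Neural fate genes had 5 of 32 (15.6%, 5.28 to 32.8), including scrib, ttk, msi at 93.6 and numb (an inhibitor of Notch) at 78.5. Notch signalling had 4 of 29 (13.8%, 3.89 to 31.7), led by gro, the Groucho corepressor gene, at 157.9. Mesoderm regulators had 4 of 31 (12.9%, 3.63 to 29.8), with tin at 76.0, lmd at 64.5, pnr at 57.8 and twi at 52.6. Dpp and Activin signalling had 3 of 18 (16.7%, 3.58 to 41.4), with magu at 93.3, daw at 59.6 and ush at 56.3. Hedgehog signalling had 2 of 13 (15.4%, 1.92 to 45.4), dlp (91.3) and Pka-C1 (60.5). Ecdysone genes had 2 of 18 (11.1%, 1.38 to 34.7), dib (72.7) and Blimp-1 (46.8). Muscle structural genes had 1 of 21 (4.76%, 0.120 to 23.8), Msp300 (113.9).

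Among lists of growth genes, no interval of the main setting excluded the background of 5.37%. Cytoplasmic ribosomal protein genes had 6 of 45 (13.3%, 5.05 to 26.8), with RpL24 at 116.4, RpS28b at 77.7, RpL30 at 73.5 and RpL23A at 67.6. That list had 10 of 48 (20.8%, 10.5 to 35.0) with a TSS window of 250 bp, against a background of 6.59%. With TSSs of protein-coding genes only it had 9 of 59 (15.3%, 7.22 to 27.0) against 5.58%. On the conservative list it had 9 of 46 (19.6%, 9.36 to 33.9) against 4.68%. These intervals lay above the background, while those with 1000 bp or from a single replicate's list included it. Cell cycle genes had 4 of 33, with Mcm2 (78.8), CycE (65.4), stg (50.05) and Dp (43.7). Translation factors had 3 of 31, eIF5B (74.9), eIF3c (63.5) and eEF5 (62.8), and splicing and mRNA processing genes had 3 of 29, Sxl (69.0), Cpsf100 (68.7) and hrg (48.9). No member lay at 33 mitochondrial ribosomal protein, 32 proteasome, 43 respiratory chain, 16 DNA repair or 14 aminoacyl-tRNA synthetase genes. By the limit of 3 counts of the total, these zeros allow shares of up to 9.09%, 9.38%, 6.98%, 18.8% and 21.4% in that order, all above the background of 5.37%. They depend on the window: with 250 bp, mitochondrial ribosomal protein genes had 3 of 24, respiratory chain genes 3 of 33 and synthetase genes 1 of 11, and with 1000 bp translation factors had 0 of 31.

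No member lay at 138 odorant, gustatory and ionotropic receptor genes, 95 cuticle protein genes or 69 cytochrome P450 genes. By the limit of 3 counts their zeros allow shares of up to 2.17%, 3.16% and 4.35%, and the exact intervals reach 2.64%, 3.81% and 5.21%. With a TSS window of 250 bp the exact interval of the P450 genes, 0 of 53, reached 6.72%, against 6.59% of all protein-coding genes in that setting. It also passed the background on the conservative list (5.44% against 4.68%) and without replicate 1 (6.27% against 4.21%). Without replicate 2 the intervals of the receptor, cuticle and P450 lists reached 4.25%, 5.13% and 6.72%. All of these included that setting's background of 2.62%.

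**Figure D5:**
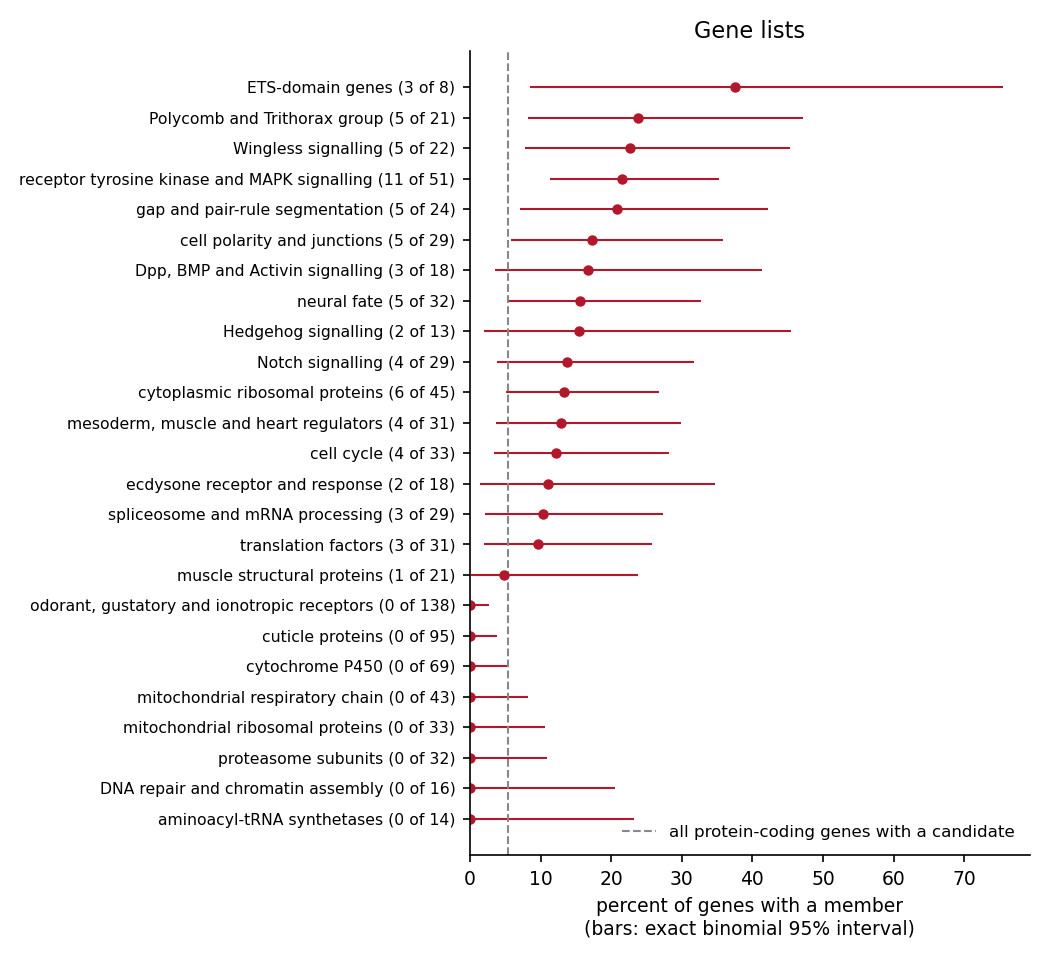
Percent of genes with a member in each of 25 gene lists, with exact binomial 95% intervals and counts beside the names; the dashed line is the 5.37% of all protein-coding genes with a candidate. The pathway list that holds aop and spi (11 of 51) lies right of the line, and the receptor, cuticle and cytochrome P450 lists lie at 0.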

How the data were processed

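Genomic DNA from anti-GFP ChIP of 2 biological replicates was compared as peak lists on dm6. Per the file headers and text lists deposited by the authors, the ranking of peaks rests on the irreproducible discovery rate (IDR). An aligner and a peak caller, with versions, are not named in the sources used here. The deposited signal is the authors' enrichment value per peak, with unstated scaling, and the deposited score is the IDR rank score, at least 830 and at most 1000 in the thresholded list. The thresholded list held 1725 peaks and its ranked candidates numbered 147076. Peaks on unplaced sequence (33) were left out.

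Gene models came from Ensembl release 115 and sequence from Release 6, the same assembly. Members, gene lists and tests were chosen with earlier results of these data known. The genes named were the 10 strongest members, the 3 strongest in neither own list, the 3 weakest, those with the 9-base ETS form, up to 4 per gene list, the genes with the most members and the 3 largest rank differences; others are given as parts of small counts or named above as chosen after their values were seen. In the receptor tyrosine kinase list all bound genes are named, beyond the 4 of the rule. Sequences were printed for the strongest members and for carriers of the motifs, in a wider window where the match lay more than 50 bp from the summit. Replicate values are those of the strongest candidate overlapping the member by at least 1 bp in each replicate's own list. Intervals of shares are Clopper-Pearson 95% intervals, and those of differences are Newcombe 95% intervals. No p-value was computed, because 1 group with 2 replicates allows no comparison of conditions. The 25 lists drew on 571 symbols and on name patterns for gene families; 33 older names were replaced and 17 symbols matched no gene. Alternatives varied the TSS window, the genes, the list, the replicates, the motif window and the background. Python 3.11.15, numpy 2.4.6, pandas 2.3.3, scipy 1.17.1 and matplotlib 3.10.9 were used, and the counting was tested on simulated data.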

Additional observations from a re-analysis of the deposited data

Results flagged for a closer look

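The ranked list held 24 candidates of the single-gene promoter class that reached the lowest score of the thresholded list, 830, but were not in it. They drew attention because they are signal outside the peaks described above. The strongest were at larp, which encodes an RNA-binding protein, with a signal of 269.4, and at CG42788 with 150.9. The larp candidate was also the strongest of the background candidates. Others included InR, the insulin receptor gene, with 64.7. Their median signal was 66.4, against 65.8 in members. The authors' reason for leaving them out is not stated in the files or labels.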

How the results depend on the processing

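Of 119 recomputed values of the main results, 98 kept their direction and side of 0 or stayed within the interval of the value reported. With a TSS window of 250 bp the single-gene share was 32.2%, summits within 100 bp made up 58.5% and the DRE difference to shared promoters was −2.21 points, with an interval that includes 0; with 1000 bp, summits within 100 bp made up 28.7%. The conservative list had 34.6% of members in both own lists. In the strongest 293 members these were 59.4%, 78.5% were upstream and 32.8% within 100 bp, and the differences to the background were 1.5 points for the ETS site, 0.596 for the DRE and 0.964 for M1BP, each with an interval that includes 0. On the list of a single replicate, upstream summits ranged from 74.3% to 82.5%, those within 100 bp from 26.7% to 39.7%, the ETS difference from 2.79 to 2.87 points, the DRE difference from −0.217 to 1.16 and the M1BP difference from 0.132 to 1.14, the lower motif values being those without replicate 2, where the interval of the ETS difference included 0. Within 50 bp the M1BP difference was 0.447 and the DRE difference to shared promoters −2.3; within 250 bp the ETS difference was 2.56, and these 3 intervals include 0. Against the strongest 1792 background candidates the DRE difference was 0.852 and M1BP reversed to −0.0763. The causes were not tested. The GAGA differences kept their sign, with intervals above 0, under every alternative run; the difference to the background ranged from 2.7 points within 50 bp to 19.1 within 250 bp, with 6.82 against the strongest 1792 candidates. Leaving out the members around aop, overlapping members or all but the strongest member per gene, 3 alternatives chosen after seeing the data, changed no call; the comparisons with shared promoters were also added then. Of 150 recomputed gene list shares, 16 left the interval of the value reported. No paired analysis was possible because the 2 replicates form 1 group. Read depth is unknown, so weak promoters cannot be told from unbound ones.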
